A study of Mus musculus with 8 samples.

Results

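The endothelial cells of mouse islets line the islet capillaries and the larger vessels that feed and drain them. Their 812 cells, of 6959 in all, were the cells that the deposited annotation names as endothelial. They came from 2 droplet single-cell libraries of islets handpicked from wild-type C57BL/6 mice, with 5 mice and about 1200 islets pooled in each library. The vehicle library was made from mice given vehicle by oral gavage, labelled Control. The FAKi library was made from mice given PF562271, an inhibitor of focal adhesion kinase (FAK, encoded by *Ptk2*), at 50 mg/kg in 2 doses per day. Treatment lasted 3 weeks, and the islets were collected 10 days after dosing ended. Mice were 6 to 12 weeks old when experiments began, and the wild-type mice given FAKi are described as 8 weeks old. Of 3776 cells of the vehicle library 543 were endothelial, and of 3183 cells of the FAKi library 269 were. The 8 samples of the series were read as 4 lanes of each library, so each condition had 1 library and no replicate. No test between conditions was therefore possible, and every value below compares these libraries.

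Islet capillaries are fenestrated: *Plvap* encodes the protein of the fenestral diaphragm, and VEGF-A made by the endocrine cells acts on the endothelial receptor encoded by *Kdr*. Capillary, arterial, venous and lymphatic endothelial cells share junction genes such as *Cdh5* and *Pecam1* but differ in connexins, leukocyte-binding receptors and transcription factors. FAK carries signals from integrins and from VEGF receptors in endothelial cells.

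The deposited clustering split the endothelial cells into cluster 3, with 371 vehicle and 229 FAKi cells, and cluster 11, with 172 and 40 cells. The promoters of *Kdr* and *Esm1*, of higher level in cluster 3, and of *Selp* and *Ackr1*, of higher level in cluster 11, are shown because the clusters are described by these genes. They were chosen after their levels were seen, and run from 250 bases before to 50 after the start of the gene in RefSeq on GRCm38.p6. Capitals mark matches on either strand to CAGGAA, letters found in many ETS factor sites, or to AGATAA, letters found in many GATA factor sites. *Kdr* lies on the minus strand (chr5:75978406-75978705), *Esm1* on the plus strand (chr13:113209409-113209708), *Selp* on the plus strand (chr1:164115014-164115313) and *Ackr1* on the minus strand (chr1:173333454-173333753).
Kdr: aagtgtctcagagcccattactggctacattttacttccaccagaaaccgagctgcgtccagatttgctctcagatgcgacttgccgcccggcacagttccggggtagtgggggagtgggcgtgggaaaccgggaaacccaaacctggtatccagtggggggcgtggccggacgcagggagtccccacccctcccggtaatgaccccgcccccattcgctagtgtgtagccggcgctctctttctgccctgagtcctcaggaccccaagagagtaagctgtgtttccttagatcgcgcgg
Esm1: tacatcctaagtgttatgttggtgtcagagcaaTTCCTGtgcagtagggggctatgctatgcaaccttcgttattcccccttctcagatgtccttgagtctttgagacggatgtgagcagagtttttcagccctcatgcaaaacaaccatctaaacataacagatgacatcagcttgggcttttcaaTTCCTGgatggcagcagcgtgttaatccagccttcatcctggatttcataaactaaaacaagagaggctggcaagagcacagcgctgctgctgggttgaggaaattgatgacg
Selp: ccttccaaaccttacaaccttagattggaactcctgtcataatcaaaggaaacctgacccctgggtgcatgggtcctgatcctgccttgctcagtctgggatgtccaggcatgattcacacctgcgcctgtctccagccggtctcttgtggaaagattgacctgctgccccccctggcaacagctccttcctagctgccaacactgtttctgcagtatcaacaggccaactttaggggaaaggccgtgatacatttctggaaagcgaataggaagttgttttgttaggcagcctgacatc
Ackr1: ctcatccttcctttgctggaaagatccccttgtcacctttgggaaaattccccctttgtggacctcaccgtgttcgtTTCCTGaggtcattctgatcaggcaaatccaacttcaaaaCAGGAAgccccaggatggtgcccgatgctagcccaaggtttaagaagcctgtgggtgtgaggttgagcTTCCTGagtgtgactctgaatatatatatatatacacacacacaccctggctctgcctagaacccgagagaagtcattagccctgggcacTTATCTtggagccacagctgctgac

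These windows held 0 matches in *Kdr* and *Selp*, 2 of CAGGAA in *Esm1*, and 3 of CAGGAA and 1 of AGATAA in *Ackr1*. Of all 32851 RefSeq promoters of this length, 30.6% held CAGGAA and 11.2% held AGATAA. Among the 180 promoters found for genes whose level in the endothelial cells was at least 4 times that in any other class, the shares were 38.3% and 10.6%. Among 252 promoters of cluster 3 genes they were 29.8% and 5.16%, and among 330 promoters of cluster 11 genes 32.1% and 5.45%, with a promoter found for 198 of 257 and 241 of 314 genes. These shares describe the letters in the windows and say nothing of binding.

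The endothelial cells made up 14.4% of the vehicle library (95% interval 13.3 to 15.5%) and 8.45% of the FAKi library (7.51 to 9.47%). Intervals are Clopper-Pearson for shares, exact Poisson for levels and exact conditional binomial for ratios, and cover counting error only, not the spread between mice or dissections. Cluster 11 held 31.7% of the endothelial cells in vehicle islets and 14.9% in FAKi islets. Recovery of a cell kind from the islets and its number in the tissue cannot be told apart here. The cells carried 3782035 unique molecular identifiers (UMIs) over all vehicle cells and 1502948 over all FAKi cells, with medians of 5752 and 4836 UMIs and 2435 and 2174 genes per cell. No endothelial barcode was shared between the libraries, 4 barcodes of other cells were, and 14 vehicle and 10 FAKi endothelial cells were called doublets. At least 3 of the 6 markers *Pecam1*, *Cdh5*, *Plvap*, *Kdr*, *Flt1* and *Esam* were detected in 98.9% of the endothelial cells of each library, against 0.588% and 0.480% of the other vehicle and FAKi cells.

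Levels are UMIs per 1000000 UMIs of the summed cells (CPM), from 3′ counts with no correction for gene length, so levels of different genes were not ranked. *Plvap* was at 3929 CPM in the vehicle and 3395 CPM in the FAKi cells, 72.7 and 76.3 times the level in the next highest of the 10 other classes compared, B cells left out. *Kdr* was at 1937 and 2364 CPM, 212 and 136 times the next class, and *Flt1*, a VEGF receptor that binds its ligand without strong signalling, at 2565 and 3069 CPM, 93.7 and 205 times. *Cdh5*, the adherens junction cadherin of endothelium, was at 794 and 742 CPM, 97.9 and 85.1 times the next class. *Pecam1*, an adhesion receptor at cell contacts, was at 1474 and 1151 CPM, 31.6 and 195 times the next class compared, the latter with an interval of 66.6 to 947 from 3 UMIs. The 113 vehicle B cells, outside that comparison, were above it at 90.0 CPM, with *Pecam1* in 32.7% of cells. *Esam*, a tight-junction adhesion molecule, stood out less, at 835 and 809 CPM, 2.10 and 2.09 times the pericytes. It was detected in 93% and 89.2% of endothelial cells, in 73.0% and 65.6% of pericytes, and in 11% and 10.3% of β-cells, which had the larger median depth of 30793 and 30428 UMIs. The class label therefore stood on 5 of the 6 markers, with *Esam* shared by pericytes.

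**Figure D1:**
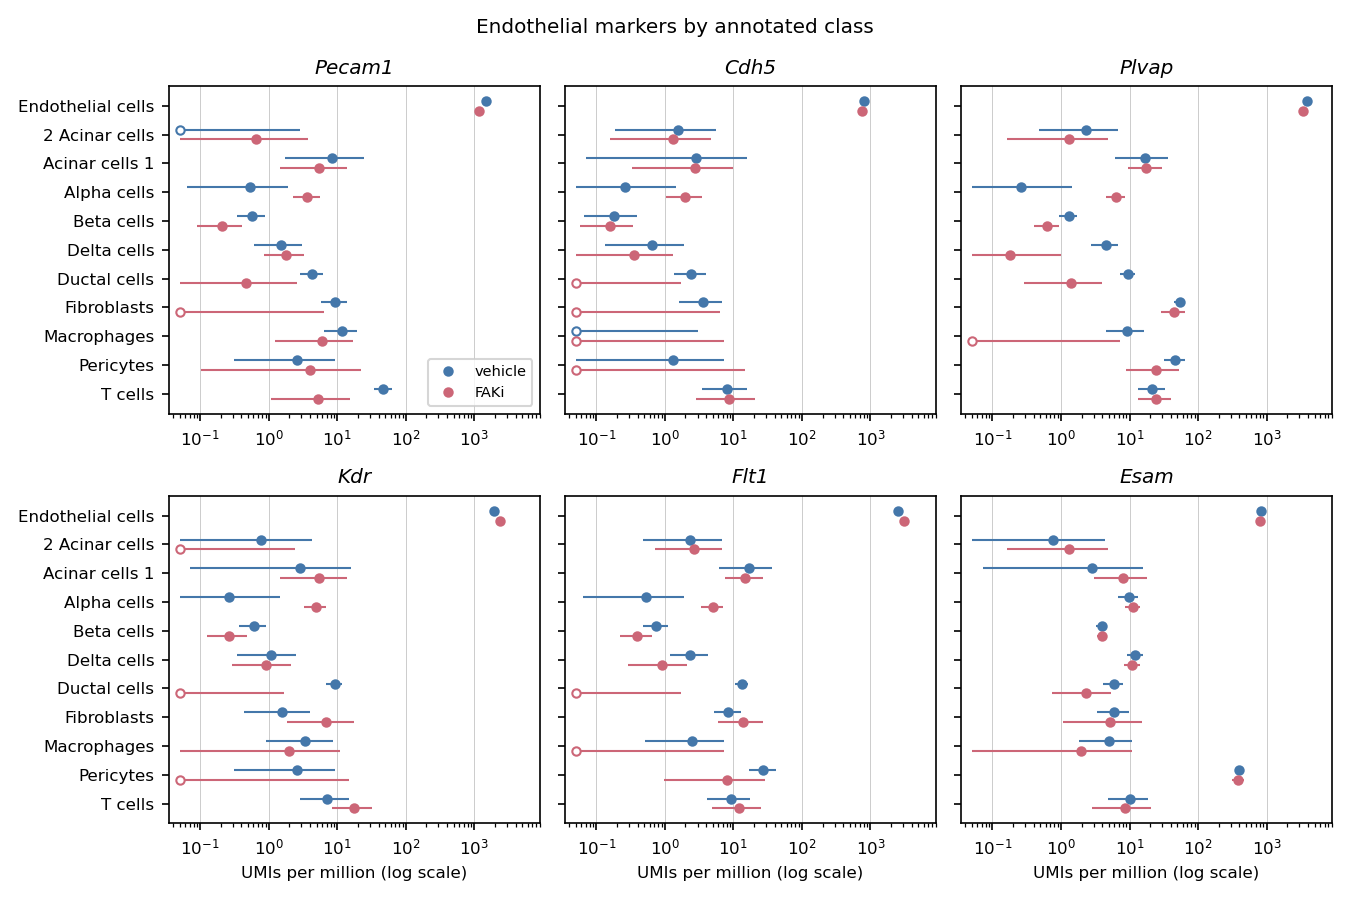
CPM (log scale) of the 6 endothelial markers in each annotated class of the vehicle and FAKi libraries, with 1 point per class and library and an open symbol for a class at 0. *Plvap* was at 3929 and 3395 CPM in the endothelial cells, while *Esam* was also high in pericytes, at 398 and 387 CPM.

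Of 6653 genes with at least 100 UMIs in the endothelial cells, 197 (2.96%) were at least 4 times as high there as in any of the 10 other classes in both libraries, and 181 with B cells included. Ordered by the smaller of the vehicle and FAKi ratios with 1 CPM added to each level, the leading genes were *Esm1* (173 and 296 times the next class, without the addition) and *Mmrn2* (195 and 192 times, the latter 53.0 to 1586 from 2 UMIs). *Esm1* encodes a secreted proteoglycan of sprouting endothelium and *Mmrn2* a matrix protein of vessels. The transcription factor gene *Sox18* followed at 173 and 444 times, and the guidance receptor gene *Robo4* was at 217 and 399 times (135 to 1944 from 3 UMIs in the FAKi library). Others of the 20 leading genes were *Ptprb*, the phosphatase that restrains the angiopoietin receptor (126 and 128 times), *Emcn* (211 and 103 times), *Egfl7* (97.2 and 80.1 times), and *Gpihbp1*, the capillary anchor of lipoprotein lipase (163 and 86.4 times, with 1 UMI in the next vehicle class and an interval from 29.2 upward). *Selp*, the P-selectin gene, was among them, with 1411 UMIs in the vehicle endothelial cells, a ratio of 149 (50.9 to 724) from 3 UMIs in macrophages. In the FAKi library it had 151 endothelial UMIs and 1 in the next class, too few for a fold. Of the 26 genes of the pan-endothelial list, all 26 were counted and 22 were at least 4 times the next class.

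The genes that varied most among the endothelial cells of each library, by the smaller variance of Pearson residuals, were led by *Malat1*, a nuclear long RNA, and *Fabp4*, a fatty-acid binding protein gene. *Esm1*, *Igfbp3*, *Rbp7*, *Aqp1*, *Rgcc*, *Plpp3* and *Igfbp7* of endothelial function also stood among these 20, beside the insulin genes *Ins1* and *Ins2*. Most of these endothelial genes split by cluster. *Igfbp7*, a secreted binding protein gene, was at 11040 and 10946 CPM in cluster 3 and 2493 and 3943 CPM in cluster 11 (vehicle and FAKi), and *Aqp1*, the water channel gene, at 147 and 15.3 CPM in cluster 3 and 2037 and 1248 CPM in cluster 11.

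The clusters were described without a test, because they were drawn on the same genes. Cluster 3 carried most of the capillary genes that divided by cluster, 7 of the list against 5 in cluster 11, *Aqp1* among the latter. In all, 257 genes (3.86% of those counted) were at least 2-fold higher there than in cluster 11 in both libraries. *Btnl9*, a butyrophilin-like gene, was 74.2 times as high in the vehicle cells of cluster 3, with 351 and 1 UMIs in the FAKi cells of clusters 3 and 11. *Car4*, the carbonic anhydrase on the capillary surface, had 994 and 2 UMIs in the vehicle and 219 and 1 in the FAKi cells of these clusters. *Rgcc*, a cell cycle regulator of capillaries, was 38.3 and 29.0 times as high, and *Gpihbp1* 20.6 and 18.4 times. *Kdr* was 8.46 and 6.46 times as high, and *Esm1* was detected in 77.6% of vehicle and 89.1% of FAKi cells in cluster 3. *Plvap* differed less, at 1.65 and 1.5 times.

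In cluster 11, 314 genes (4.72%) were at least 2-fold higher than in cluster 3 in both libraries. Of the genes counted by list, they held 8 of 13 arterial, 7 of 10 venous and 3 of 6 lymphatic genes. They also held 7 of 19 immediate early and heat-shock genes and 5 of 20 capillary genes. *Selp* was 411 times as high as in cluster 3 in the vehicle cells, with 150 UMIs against 1 in the FAKi cells, and *Vwf*, the von Willebrand factor gene, was 88.0 and 219 times as high (73.3 to 1073 for the latter, from 3 UMIs). *Ackr1*, the chemokine receptor of venules, was 650 times as high in the vehicle cells (179 to 5376, from 2 UMIs) and absent from the 229 FAKi cells of cluster 3, where a count of 0 allows a level of up to 2.42 CPM. *Vcam1*, an adhesion receptor for leukocytes, was 312 times as high in the vehicle cells. The lymphatic genes *Mmrn1* and *Lyve1* were also among its 10 leading genes, with *Cytl1*, *Ctsh*, *Il6* and *Igf2*.

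**Figure D2:**
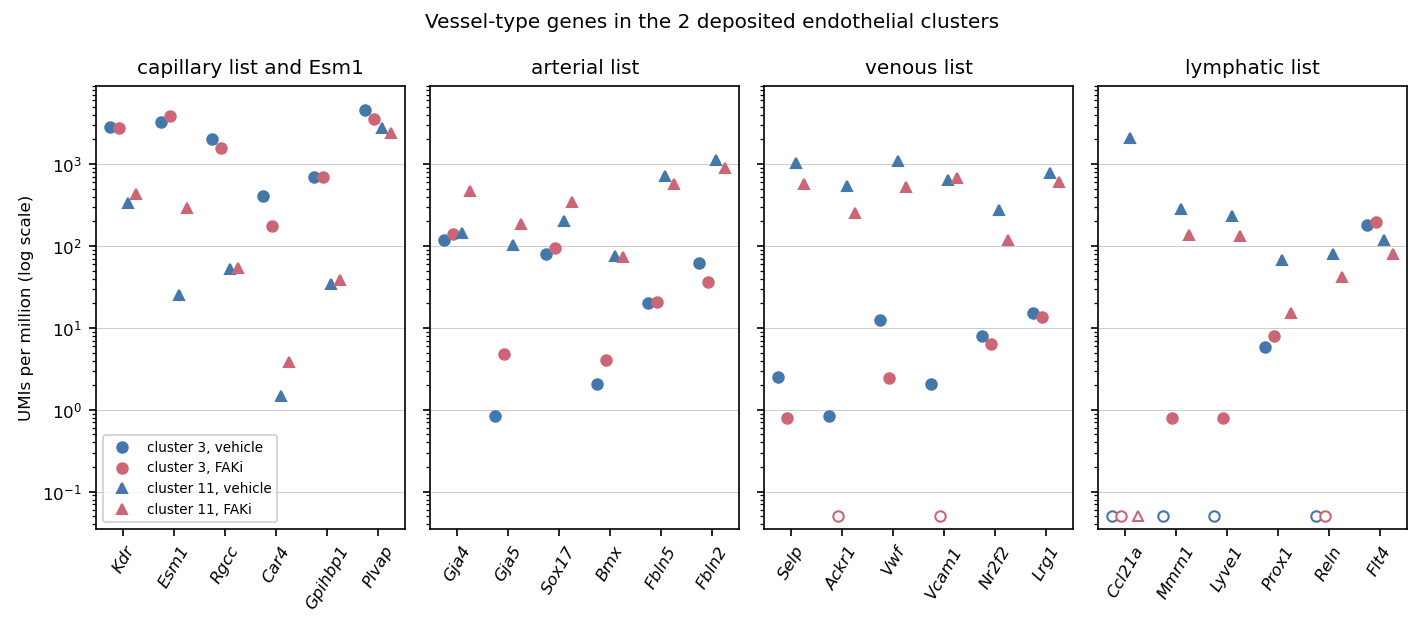
CPM (log scale) of genes of the capillary list with *Esm1*, and of the arterial, venous and lymphatic lists, in clusters 3 (circles) and 11 (triangles) of each library, with open symbols at 0. *Kdr* was higher in cluster 3 and *Selp* in cluster 11 in both libraries, and *Ccl21a* had no UMI in the FAKi cells of either cluster.

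Cluster 11 was itself mixed. Its cells were sorted by sets chosen after values were seen: lymphatic-type with at least 3 of the 7 lymphatic genes, then arterial-type with a UMI of the connexin genes *Gja4* or *Gja5*, and venous-type with a UMI of *Selp* or *Ackr1*. In the vehicle library 118 of 172 cells were venous-type only (68.6%, interval 61.1 to 75.5%), 30 arterial-type only (17.4%, 12.1 to 24.0%), 14 lymphatic-type, 0 both arterial and venous and 10 neither. In the FAKi library 13 of 40 were venous-type only (32.5%, 18.6 to 49.1%), 20 arterial-type only (50%, 33.8 to 66.2%), 1 lymphatic-type, 1 both and 5 neither. The arterial pair had been changed after counts were seen: with *Gja5* or *Bmx*, arterial-type only cells numbered 24 and 14, venous-type only 103 and 13, and both 15 and 1. With *Gja5* alone they were 20 and 13, 118 and 13, and 0 and 1. The venous-type share was lower in the FAKi library under each of these sets. The venous genes were the same in all of them, so the sets are no check of that share. The same sort called 125 of 371 vehicle (33.7%) and 85 of 229 FAKi cells (37.1%) of cluster 3 arterial-type only. *Gja5* was detected in 2 and 3 cluster 3 cells, so most of these carried *Gja4* alone. The arterial-type rule therefore did not separate the clusters, and the kinds below are those of cluster 11.

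Some genes not used in the sort followed the kinds, and others did not. In the 118 vehicle and 13 FAKi venous-type cells, *Nr2f2*, the vein-identity transcription factor gene, was at 308 and 271 CPM, *Vwf* at 1429 and 1152 CPM, and *Lrg1*, a secreted venular glycoprotein gene, at 1087 and 1443 CPM. *Nr2f2* had no UMI in the arterial-type cells of either library, and was at 834 CPM in the vehicle lymphatic-type cells. In the 30 and 20 arterial-type cells, *Sox17*, an arterial transcription factor gene, was at 564 and 628 CPM, and *Hey1*, a Notch target gene, at 175 and 163 CPM. *Hey1* was at 2.14 and 0 CPM in the venous-type cells, and *Sox17* at 123 and 29.0 CPM. *Vcam1*, of the venous list, was at 874 and 581 CPM in the venous-type cells and 245 and 806 CPM in the arterial-type cells. *Fbln2*, of the arterial list, was at 894 and 920 CPM in the venous-type cells. Other genes differed between the arterial-type cells of the libraries: *Fbln2* was at 2294 and 891 CPM, *Fbln5* at 2437 and 961 CPM, and *Vwf* at 515 and 139 CPM. *Bmx*, an arterial kinase gene, was at 273 and 147 CPM and *Nos3*, the endothelial nitric oxide synthase gene, at 273 and 155 CPM. The capillary genes *Kdr* (224 and 511 CPM) and *Plvap* (882 and 1604 CPM) were higher in the FAKi arterial-type cells, so these are cells of 1 sorting rule and were not shown to be the same kind in both libraries. The lymphatic-type cells, for which it was among the sorting genes, carried *Prox1*, the lymphatic master regulator, at 784 CPM over 14 vehicle cells, and 4 UMIs in the single FAKi cell. At least 3 lymphatic genes were also detected in 29 vehicle and 2 FAKi ductal cells and in 1 FAKi β-cell.

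Between the libraries, few endothelial genes differed by as much as 2-fold, and more were lower than higher in the FAKi library. Genes with a level under 10% of that in another class were counted apart, since free RNA can carry them. Of the remaining 6517 genes, 18 (0.276%) were at least 2-fold higher and 122 (1.87%) at least 2-fold lower in the FAKi cells. These 6517 still held 4 of the 12 endocrine markers, *Ins1* and *Ins2* among them, and 3 platelet and red cell markers. Of the 136 genes counted apart, 14 (10.3%) were higher and 25 (18.4%) lower. Over all 6653 genes these were 32 (0.481%) and 147 (2.21%), and the median log2 ratio was −0.03. Since cluster 11 was a smaller share of the FAKi cells, the counts were repeated with the same cluster weights in both libraries: 15 of the 18 and 39 of the 122 genes stayed past 2-fold, of 23 higher and 50 lower in all, so the higher calls were 31.5% of calls with the same weights and 12.9% without.

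Among the 10 highest ratios, *Cldn15*, a claudin gene, was at 15.1 CPM in the vehicle and 55.2 CPM in the FAKi cells, a ratio of 3.66 (95% interval 2.58 to 5.23). It was higher within cluster 3 (ratio 3.06) and within cluster 11 (4.73), the latter from only 10 vehicle and 9 FAKi UMIs. Without the richest cell of each library the cluster 11 ratio was 4.12 (1.18 to 13.5). *Slit3*, a guidance ligand gene, had a ratio of 3.07 (2.08 to 4.56), and *Col4a4*, a basement membrane collagen gene, 2.52 (1.74 to 3.65), with 0 UMIs in the 40 FAKi cells of cluster 11 and 4 in the vehicle cells. The interferon-induced GTPase genes *Gbp6*, *Gbp5* and *Igtp* had ratios of 2.94, 2.27 and 2.25, although in cells thinned to 1000 UMIs the log2 ratio of *Gbp5* was −0.0200, and *Cd274*, which encodes the T-cell inhibitory ligand PD-L1, 2.69. For *S100a4*, at 2.95, a single FAKi cell held 62.1% of the UMIs, and for *Gbp6* a single cell held 30.4%.

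*AY036118*, a transcript of the ribosomal RNA locus, was at 412 and 1291 CPM (ratio 3.14, 2.93 to 3.35), and was higher in the FAKi library in 10 of 10 other classes. *Hspa1a*, a heat-shock gene, had a ratio of 1.94 and was higher in 9 of 10 other classes.

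Of the 122 lower genes, 85 were among the genes at least 2-fold higher in cluster 11 than in cluster 3, which were 280 of all 6517. The 10 lowest ratios were led by genes of the lymphatic and venous kinds. *Ccl21a*, the lymphatic chemokine that draws in dendritic cells, had 2874 UMIs in the vehicle and 0 in the FAKi cells, at least 381-fold lower against a floor of 3 UMIs. Of these, 2872 lay in the lymphatic-type cells of cluster 11. The 1 lymphatic-type FAKi cell held 36 UMIs of *Mmrn1*, 35 of *Lyve1*, 11 of *Reln* and 0 of *Ccl21a*. *Csf3*, a cytokine gene, had 115 and 0 UMIs, at least 15.2-fold lower, with 113 of them in 19 of the 118 vehicle venous-type cells. *Il6*, *Sele* and *Bmp4* had ratios of 0.192, 0.206 and 0.148, and *Cldn5*, the tight-junction claudin, 0.194.

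*Selp* and *Ackr1* had ratios over all endothelial cells of 0.269 and 0.227. They chose the venous-type cells, so their levels in those cells are no comparison. Genes that did not enter the sort were read there: *Il6* was at 229 and 165 CPM, in 42 of 118 and 5 of 13 cells. *Bmp4*, a secreted growth factor gene, was at 113 CPM in the vehicle and 19.4 CPM in the FAKi venous-type cells, from 106 and 2 UMIs. *Cldn5* was at 995 and 263 CPM in the arterial-type cells, in 20 of 30 and 8 of 20 cells, and at 2964 CPM in the 14 vehicle lymphatic-type cells.

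The lists of vessel kinds were read against the 2.21% of all genes lower over the class. Of the 10 venous genes, 6 were at least 2-fold lower and none higher, with a median log2 ratio of −1.60, and with the same cluster weights the median was −0.59. Of 6 lymphatic genes counted, 5 were lower, with a median of −1.83 and −0.95 with the same cluster weights, and the single one counted in cluster 3 was at 0.12. Of 13 arterial genes counted, 2 were lower, the fibulin genes *Fbln5* and *Fbln2* of elastic matrix (0.427 and 0.414), and the median was −0.03. Within cluster 11, where arterial-type cells were a larger share of the FAKi cells, 4 of 12 were higher, against 1.68% of its genes, and none lower, with a median of 0.79: *Gja4* (3.26), the Notch ligand gene *Dll4* (2.36), *Cxcl12* (2.22) and *Efnb2* (2.13, and 1.91 without the richest cell of each library). Of 12 leukocyte adhesion and chemokine genes, 6 were lower, with a median of −1.01 and −0.45 with the same cluster weights. *Icam1*, a receptor for leukocyte integrins, had a ratio of 0.485 over the class, but 1.44 within cluster 3 and 0.573 within cluster 11.

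Within cluster 3, 7 of 5217 genes (0.134%) were at least 2-fold higher and 32 (0.613%) at least 2-fold lower in the FAKi cells. The median log2 ratio was −0.06. The 10 highest ratios there were led by *AY036118*, *Cldn15* and *Alpl*. They also held *Slc2a2*, the GLUT2 gene of β-cells, at rank 4, and *Ppp1r1a* at rank 8. Among the 10 lowest ratios, *Cd36*, the fatty-acid receptor gene, was at 66.0 and 4.83 CPM, a ratio of 0.0732 (0.0265 to 0.163), and was detected in 14.8% of vehicle and 1.31% of FAKi cells. *Aqp1* was at 147 and 15.3 CPM (0.104, 0.0618 to 0.165) and *Fabp4* at 1837 and 581 CPM (0.316, 0.292 to 0.342). *Hs3st1*, a heparan sulfate sulfotransferase gene, was at 49.8 and 18.5 CPM (0.372). Outside the 10 lowest, *Car4* was at 412 and 176 CPM (0.428) and *Fabp5* at 239 and 120 CPM (0.503). *Rgcc* was at 2007 and 1553 CPM (0.774) and *Plvap* at 4585 and 3605 CPM (0.786), while *Gpihbp1* had a ratio of 0.997, *Rbp7* 0.993 and *Kdr* 0.973.

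Of the 19 genes of the capillary list counted in cluster 3, 4 were at least 2-fold lower (*Cd36*, *Aqp1*, *Fabp4* and *Car4*) and none higher. Ratios below 1 were found for 18 of them, against 60.3% of all genes counted in the cluster, with a median log2 ratio of −0.35. Of 24 pan-endothelial genes counted there 23 were also below 1, with a median of −0.23. *Gdpd3*, a lysophospholipase gene outside the lists, was at 96.3 and 5.64 CPM, a ratio of 0.0586 (0.0233 to 0.123). *Gdpd3*, *Aqp1* and *Fabp4* were also lower in the FAKi library in several other classes. *Gdpd3* was at 65.9 and 9.83 CPM in macrophages, 66.5 and 0 CPM in pericytes and 5.89 and 0.808 CPM in β-cells. *Aqp1* was at 18.7 and 12.4 CPM in ductal cells, a ratio of 0.664, and at 38.9 and 12.0 CPM in fibroblasts. *Fabp4* was at 125 and 64.4 CPM in pericytes and 48.8 and 15.4 CPM in fibroblasts, but at 0.264 and 11 CPM in α-cells. *Cd36*, which macrophages also carry, was at 79.2 and 53.1 CPM in macrophages, a ratio of 0.671. Of 16 capillary-list genes counted in cluster 11 none passed 2-fold, with 8 above and 8 below 1. In its venous-type cells *Fabp4* was at 6400 and 7174 CPM, *Aqp1* at 2633 and 2507 CPM and *Cd36* at 298 and 184 CPM. In its arterial-type cells they were at 1614 and 527 CPM, 35.0 and 85.2 CPM, and 228 and 240 CPM.

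Cells with and without *Esm1* were set apart, after values were seen, because *Aqp1* and *Fabp4* were higher in cluster 3 cells without it. The ratios were below 1 on both sides. In the 288 vehicle and 204 FAKi cells with *Esm1*, *Cd36* was at 39.6 and 3.49 CPM, *Aqp1* at 60.1 and 8.72 CPM and *Fabp4* at 968 and 385 CPM. In the 83 and 25 cells without it, *Cd36* was at 194 and 20.9 CPM, *Aqp1* at 570 and 94.2 CPM and *Fabp4* at 6043 and 2929 CPM. *Gdpd3* was at 104 and 6.11 CPM with *Esm1* and at 58.2 and 0 CPM without. On the side without *Esm1* other capillary genes were lower too, with ratios of 0.504 for *Rgcc*, 0.572 for *Plvap*, 0.611 for *Gpihbp1* and 0.781 for *Kdr*, beside 0.485 for *Fabp4*. The cells on that side had medians of 3963 (vehicle) and 1896 (FAKi) UMIs, whose part in these ratios was not tested.

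**Figure D3:**
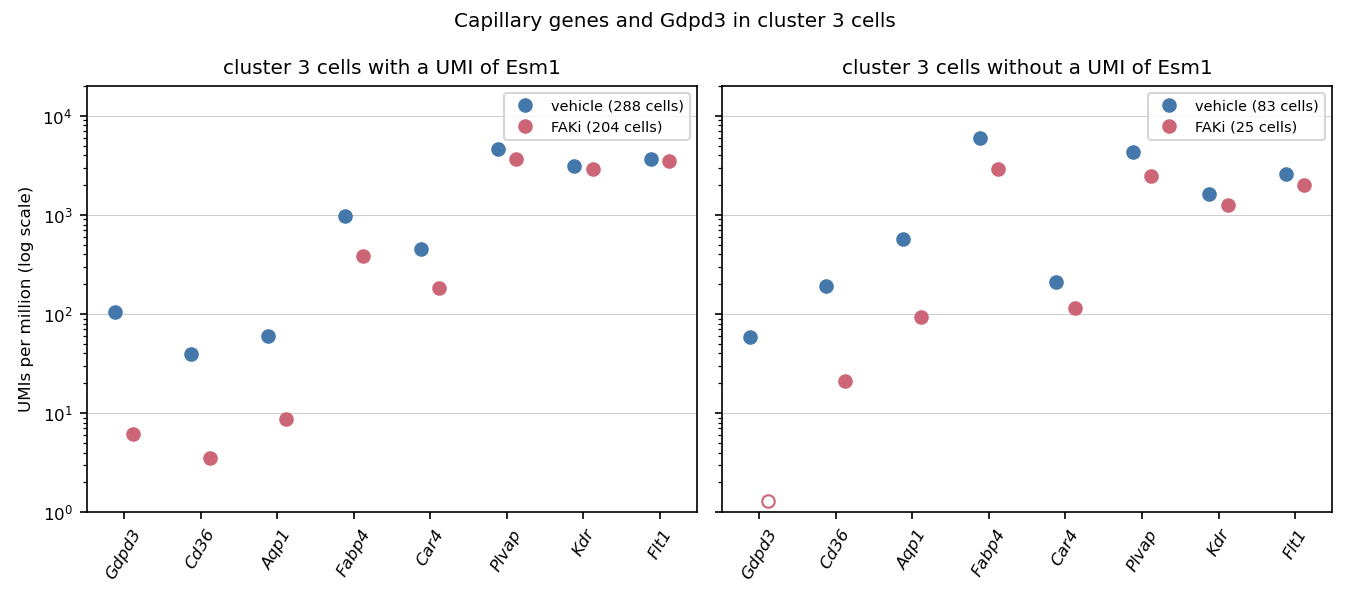
CPM (log scale) of 8 genes in cluster 3 cells with (left) and without (right) a UMI of *Esm1*, for each library, with an open symbol at 0. *Gdpd3*, *Cd36*, *Aqp1*, *Fabp4* and *Car4* were lower in the FAKi library on both sides, while *Kdr* had ratios of 0.934 with and 0.781 without *Esm1*.

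No gene of the basement membrane and VEGF lists passed 2-fold in cluster 3. All 15 basement membrane genes counted there had ratios below 1, against 60.3% of all genes counted, with a median log2 ratio of −0.29 against −0.06. So did 23 of 24 pan-endothelial genes and all 6 markers, with medians of −0.23 and −0.20, so the direction was not particular to this list. *Col4a1* and *Col4a2*, the main collagens of the vascular basement membrane, had ratios of 0.800 and 0.761, and *Hspg2*, the perlecan gene, 0.815. Of 9 VEGF and angiopoietin system genes none passed 2-fold there, with a median of −0.06. *Kdr* (0.973), *Flt1* (0.984) and *Nrp1*, the VEGF co-receptor gene (0.962), were near 1, while the angiopoietin receptor gene *Tek* and its partner *Tie1* were at 0.854 and 0.771. Over the whole class the ratios were 1.22 for *Kdr* and 1.2 for *Flt1*, and within cluster 11 they were 1.27 and 1.49.

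Most FAK and integrin genes were within 2-fold between the libraries. *Ptk2* itself was at 115 CPM in the vehicle and 102 CPM in the FAKi cells, a ratio of 0.885 (0.731 to 1.07). Its RNA is no measure of the kinase activity that PF562271 inhibits. Of 20 focal adhesion genes counted, 2 were at least 2-fold lower (*Ptk2b* and *Actn1*) and none higher, against 2.21% lower over all genes, with a median log2 ratio of −0.07. *Ptk2b*, the gene of the related kinase PYK2, was lower at a ratio of 0.429 over the class, but 0.854 in cluster 11, which held most of it. *Pxn*, the paxillin gene, had a ratio of 0.753 and *Vcl*, the vinculin gene, 1.03. Of 9 integrin genes, 2 were lower over the class, *Itga3* at 0.359 and *Itgb4* at 0.381, and none of the 6 counted in each cluster passed 2-fold within it, while *Itgb1*, the common β subunit of the laminin and collagen receptors, was at 0.963.

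Within cluster 11, 45 of 2672 genes (1.68%) were at least 2-fold higher and 58 (2.17%) at least 2-fold lower in the FAKi cells, and the median log2 ratio was 0.05. *Esm1* had the highest ratio, at 25.5 and 291 CPM (11.4, 7.55 to 17.5), but a single cell held 29 of its 35 vehicle and 40 of its 76 FAKi UMIs, and without those cells the ratio was 32.9 (13.7 to 95.5). It was detected in 3 of 172 and 9 of 40 cells, of which 2 and 9 were arterial-type. *Gja4* had a ratio of 3.26 and *Dkk2*, a Wnt modulator gene, 3.22. The lowest ratios, after *Ccl21a* and *Csf3*, held globin genes and insulin genes that other cells make: *Ins2* was at 30748 and 4031 CPM.

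**Figure D4:**
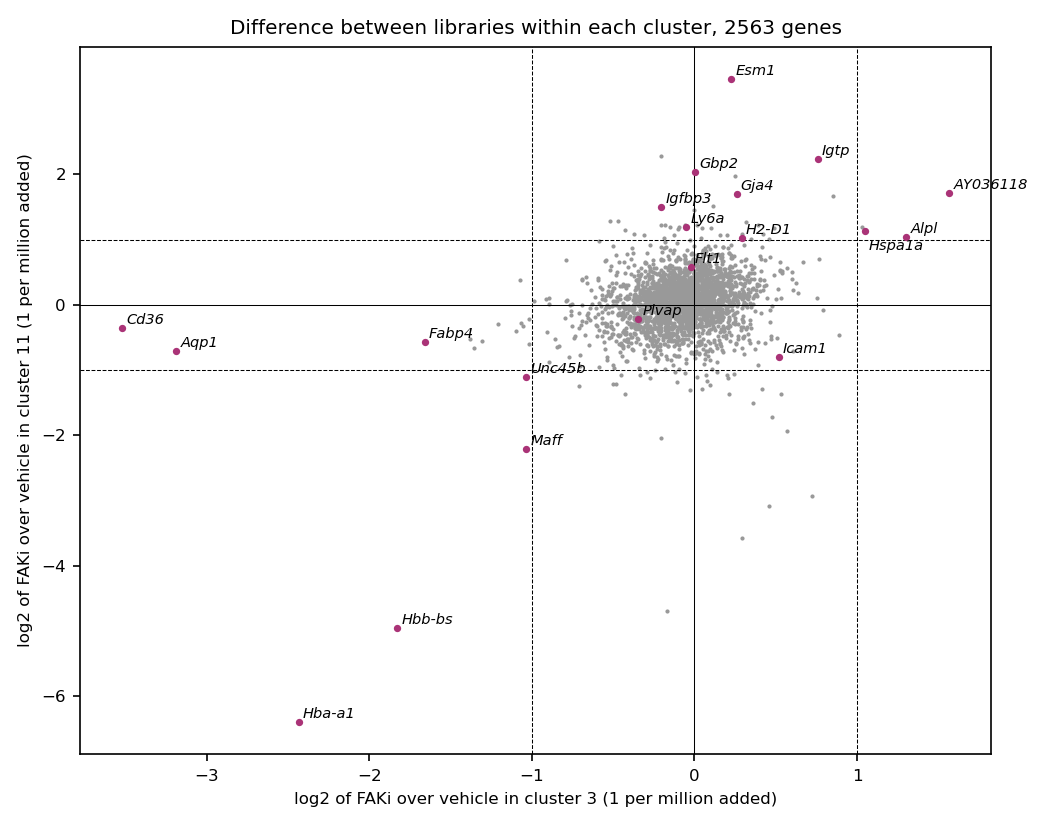
Log2 of the FAKi over the vehicle level (1 CPM added) within cluster 3 against that within cluster 11, for the 2563 genes with at least 100 UMIs in each cluster, with dashed lines at 2-fold and genes labelled after values were seen. *AY036118*, *Alpl* and *Hspa1a* were at least 2-fold higher in both clusters, and *Hba-a1*, *Hbb-bs*, *Maff* and *Unc45b* at least 2-fold lower in both.

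Of the 2563 genes counted in both clusters, 4 were at least 2-fold higher in cluster 3, 42 in cluster 11 and 4 in both. At least 2-fold lower were 17 in cluster 3, 38 in cluster 11 and 4 in both. Besides *Hspa1a* and *AY036118*, the higher ones held *Alpl*, the alkaline phosphatase gene, with ratios of 2.52 in cluster 3 and 2.06 in cluster 11 (1.97 there without the richest cell of each library). The lower ones held the globin genes *Hba-a1* and *Hbb-bs*, *Maff*, a stress-induced transcription factor gene (0.474 and 0.210), and *Unc45b*, a myosin chaperone gene (0.485 and 0.463). The globin genes rested on few cells: the 5 cells richest in platelet and red cell markers held 97.8% and 96.8% of those UMIs.

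Some interferon-response and antigen-presentation genes were higher in the FAKi cells of cluster 11, while the medians of the interferon and class I lists were near 0 on the log2 scale in cluster 3. Of 12 interferon-response genes counted in cluster 11, 5 were at least 2-fold higher and none lower, against 1.68% higher over its genes, with a median log2 ratio of 0.72, against 0.02 in cluster 3. They were *Igtp* (ratio 4.81, and 1.71 in cluster 3), *Gbp2* (4.14), *Gbp4* (2.43), *Gbp7* (2.26) and *Ly6a* (2.29). *Irf1*, an interferon-induced transcription factor gene, was at 0.718. Of 11 genes of MHC class I and its peptide processing counted there, 4 were at least 2-fold higher and none lower, with a median of 0.70 against −0.000295 in cluster 3. *H2-D1* had a ratio of 2.04, *Psmb8* and *Psmb9*, immunoproteasome subunits, 2.26 and 2.33, *H2-Q7* 2.35 and *B2m* 1.63. The class II genes *Cd74*, *H2-Ab1* and *H2-Aa* had ratios of 3.96, 4.28 and 3.02 in cluster 11. In cluster 3 the class II median log2 ratio was −0.34, with *Cd74* at 67.6 and 38.7 CPM and *H2-Ab1* at a ratio of 1.94. The class II genes stood far below macrophages, with ratios to macrophages for *H2-Ab1* of 0.00707 (vehicle) and 0.0170 (FAKi). Shares of cluster 11 cells with a UMI differed less than the levels: 44.8% and 52.5% for *Gbp2* and 22.7% and 27.5% for *Igtp*. Within cluster 11 a single FAKi cell held 36.5% of the *Gbp2* and 27.8% of the *Igtp* UMIs. Without the cell richest in each gene in each library, the ratios were 2.97 for *Gbp2*, 4.06 for *Igtp* and 2.17 for *Ly6a*. Of the 4 class I genes *Psmb8* alone stayed past 2-fold (2.13), with *Psmb9* at 1.999, *H2-Q7* at 1.98 and *H2-D1* at 1.89.

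**Figure D5:**
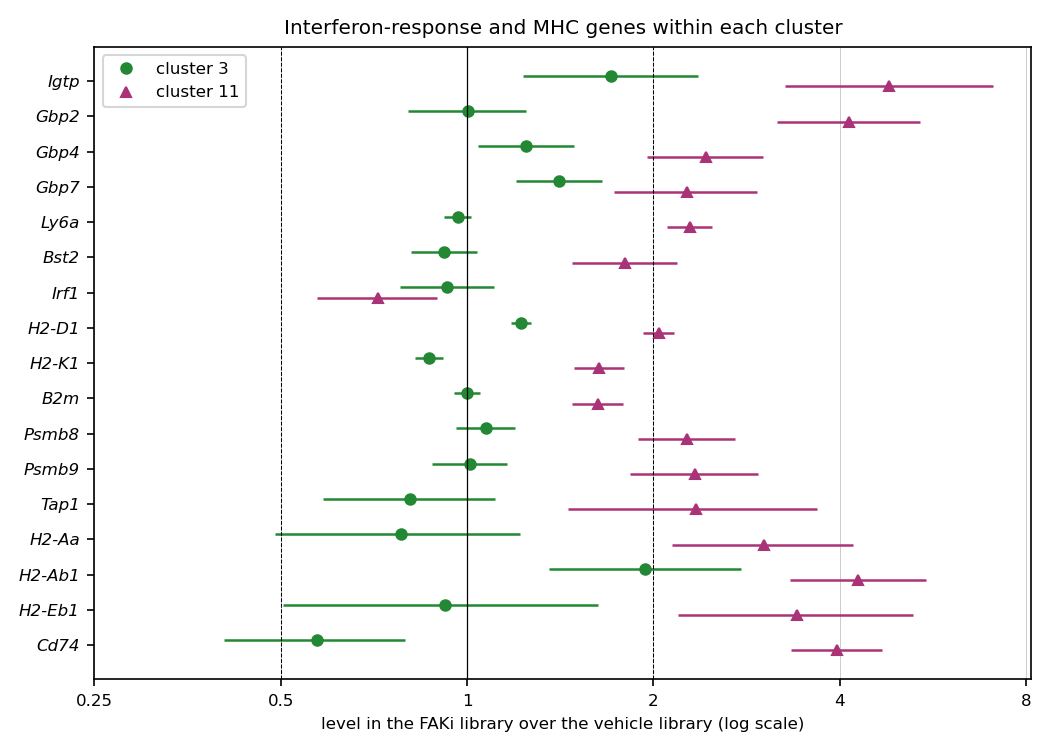
Ratio of the FAKi over the vehicle level (log scale) of 17 interferon-response and MHC genes within cluster 3 (circles) and cluster 11 (triangles), with exact 95% intervals for counting error and dashed lines at 2-fold. *Gbp2* was at 1.00 in cluster 3 and 4.14 in cluster 11, and *Irf1* was below 1 in both.

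Within the kinds these genes differed unevenly, in small numbers of cells that were not shown to match between the libraries. In the 30 vehicle and 20 FAKi arterial-type cells, *H2-D1* was at 3537 and 6980 CPM, *B2m* at 1184 and 2564 CPM, and *Gbp2* at 80.5 and 604 CPM, where 1 cell held 38 of the 78 FAKi UMIs. *Cd74*, the class II invariant chain gene, had 0 UMIs in the 30 vehicle cells, and 102 UMIs in 4 of the 20 FAKi cells. *Cd274* had 0 UMIs in the vehicle cells, and 16 UMIs in 4 of the FAKi cells. In the venous-type cells *H2-D1* was at 2825 and 4211 CPM and *Cd74* at 315 and 842 CPM, while *B2m* was at 1398 and 1578 CPM and *Gbp2* at 98.3 and 87.1 CPM. The leukocyte gene *Ptprc* had 0 UMIs in the arterial-type cells of both libraries and 1 in a vehicle venous-type cell. *H2-D1* was higher in the FAKi library in 8 of 10 other classes, with ratios of 1.91 in fibroblasts and 1.67 in pericytes but 0.296 in T cells, and *Gbp2* in 4 of 10.

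Markers of other cell types were read beside these results. The summed endocrine markers were at 58796 CPM in the vehicle and 88204 CPM in the FAKi endothelial cells, with 0.416% and 0.968% of UMIs in the median cell. They moved in opposite directions in the clusters, from 66406 to 104961 CPM in cluster 3 and from 45430 to 8545 CPM in cluster 11. Acinar markers were at 4263 and 6926 CPM, and 10 of 10 counted had ratios above 1, as did 45.6% of all genes. Acinar markers differed by cluster too, from 3820 to 7380 CPM in cluster 3, with 10 of 10 above 1, and from 5040 to 4766 CPM in cluster 11, with 3 of 10 above 1. Fibroblast markers were at 124 and 3.99 CPM, where a single vehicle cell held 92.9% of the *Col1a1* UMIs. Leukocyte markers were at 36.8 and 21.3 CPM, pericyte and smooth muscle markers at 52.1 and 58.6 CPM, and ductal markers at 117 and 71.2 CPM. *Gcg*, the glucagon gene, had a ratio of 6.86, with 68.5% of the vehicle and 45.1% of the FAKi UMIs in a single cell, and without called doublets its log2 ratio was −0.00422. *Ttr*, an α-cell transcript, had a ratio of 14.5, and a log2 ratio of 0.58 without called doublets. *Sst*, the somatostatin gene, had a ratio of 0.153, with 94.7% of its vehicle UMIs in a single cell, and 1.48 on the log2 scale in the other direction without the richest cell of each library. The part of these transcripts in the endothelial ratios was not tested beyond the recounts without the cells richest in them.

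The other lists were read against the 2.21% of all genes that were at least 2-fold lower over the class. Of 16 TGF-β and BMP pathway genes, *Bmp4* alone was at least 2-fold lower and none higher, with a median log2 ratio of 0.01. The BMP target genes *Id1* and *Id3* had ratios of 1.48 and 1.31. Of 11 Notch pathway genes none passed 2-fold (median −0.01). Their median was −0.13 in cluster 3 and 0.55 in cluster 11. Of 7 counted in cluster 11, 6 were above 1, against 55.7% of its genes, and 1 was at least 2-fold higher, against 1.68%. Of 15 cell junction genes, *Cldn5* alone did, and *Pecam1* was at 0.781. Of 16 genes of flow response, vascular tone and coagulation, 2 were lower (*Vwf* and *Edn1*), and *Klf2*, the shear-induced factor gene, and *Thbd*, the thrombomodulin gene, were at 0.875 and 0.706. Of 19 immediate early and heat-shock genes 4 were lower, *Atf3* (0.332), *Zfp36* (0.446), *Ier3* (0.459) and *Egr1* (0.496), and 14 of the 19 had intervals below 1, against 13.8% of all genes. With the same cluster weights their median log2 ratio was −0.0371, against −0.21 without. *Egr1* was higher in cluster 11, and within the venous-type cells it was at 3956 and 4453 CPM. In the arterial-type cells it was at 1411 and 906 CPM, and in those of neither kind at 4153 and 862 CPM. *Atf3* was at 1389 and 1365 CPM in the venous-type and 445 and 170 CPM in the arterial-type cells. Of 14 glycolysis and hypoxia genes none passed 2-fold, with a median of −0.14.

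Secreted signals and angiogenic genes closed the lists. Of 16 secreted signals, 1 was at least 2-fold higher and 2 lower. The higher was *Igfbp5*, whose direction split, from 4.98 to 81.3 CPM in cluster 3 and from 67.0 to 0 CPM in cluster 11, with 44.2% of the vehicle UMIs and 36.6% of those of the FAKi library in a single cell. *Bmp4* and *Edn1*, the endothelin gene, were lower, *Edn1* at 0.436 over the class and 0.867 within cluster 11. Of 12 tip-cell genes none passed 2-fold, with a median of 0.21 (0.0345 with the same cluster weights and −0.06 in cluster 3), while in cluster 11 *Esm1*, *Dll4* and *Mcam* of 4 counted were higher, against 1.68% of its genes. *Esm1* was at 1.53 over the class and 1.17 within cluster 3, and *Apln*, the apelin gene, at 0.739 and 0.518. Of 15 cell cycle genes only 5 reached 100 UMIs, and none of the 5 passed 2-fold.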

How the data were processed

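The deposited table holds raw UMI counts of 19945 genes per cell, which the authors made from droplet 3′ libraries aligned to mm10, filtered in Seurat 3.1 as the submitters' processing notes name it, and annotated. The deposited cell table gives the annotation, the clusters and the percent of mitochondrial UMIs, which the authors limited to 8 percent (the highest value was 8.00 percent). The study states 8832 vehicle and 8437 FAKi cells used for sequencing, against 3776 and 3183 in the files.

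Counts of the cells named endothelial were summed per library and cluster and scaled to CPM. Genes needed 100 UMIs over both libraries. A gene passed at a 2-fold ratio. Ratios on the log2 scale have 1 CPM added, so they understate differences of low genes. With 1 library per condition there was no test. Genes under 10% of their level in another class were counted apart. B cells were left out of the 10 classes compared, being under 20 cells in the FAKi library. Doublets were called by scrublet in scanpy 1.11.5 and kept, with a recount without them. Depth was 523 to 52085 UMIs per vehicle and 580 to 43413 per FAKi endothelial cell. The ratio and interval steps were tested on simulated counts.

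The genes named were the 6 markers, the members of 32 gene lists, the 20 genes highest over the next class, the 10 highest and 10 lowest ratios (5 each among genes counted apart), the 20 most variable and the 10 leading genes of each cluster. The cells, lists and rules were chosen with earlier results of these data known. Chosen after values were seen were the arterial, venous and lymphatic sets (the arterial pair was changed once), the *Esm1* split, the 10 highest and lowest ratios within clusters, the genes labelled in plots and the 4 promoters. Tables were read with pandas 2.3.3 and numpy 2.4.6, intervals came from scipy 1.17.1 and plots from matplotlib 3.10.9, under Python 3.11.15. Some genes that the rules name are not reported here.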

Additional observations from a re-analysis of the deposited data

How the results depend on the processing

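The genes at least 2-fold higher and lower numbered 18 and 122, and the recounts moved them as follows: 34 and 194 with at least 50 UMIs, 7 and 64 with at least 200, 756 and 1752 with at least 1, 11 and 78 in cells under 5 percent mitochondrial counts, 7 and 32 in cluster 3, 45 and 58 in cluster 11, 4 and 33 of 1330 genes in cells thinned to 1000 UMIs, 138 and 405 at a fold of 1.5, and 23 and 50 with the same cluster weights. The higher calls were 12.9% of calls as reported, 31.5% with the same weights, 43.7% in cluster 11, 30.1% with at least 1 UMI and 25.4% at a fold of 1.5. Without called doublets the counts were 18 and 116, without lymphatic-type cells 16 and 109, and without cells rich in transcripts of other types 19 and 99. The recounts in cluster 11, with the same cluster weights, without lymphatic-type cells and without cells rich in transcripts of other types were chosen after seeing the data. So was leaving out, within cluster 11, the cell richest in each gene. The 197 genes highest in endothelial cells were 441 at 2 times and 111 at 10 times the next class. Of 72 named genes past 2-fold, 44 stayed so with the same weights, 35 of 68 in cluster 3, 36 in cluster 11 and 57 after thinning.

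Sign changes were looked for among genes past 2-fold over the class and list medians of at least 1 in size. Smaller values that changed sign are not listed, such as the tip-cell median, 0.21 over the class and −0.06 in cluster 3. The log2 ratios that changed sign, with the cause not tested, were these. In cluster 3 they were 0.85 for *Mmrn1*, *Lyve1* and *Igf2*, the value that a single FAKi UMI and no vehicle UMI give with 1 CPM added. Others there were 0.62 for *Gm20186*, 0.0687 for *Fbln5*, 0.41 for *Prox1*, 0.52 for *Icam1* and 0.12 for the lymphatic median. In cluster 11 they were −1.97 for *Col4a4*, −6.09 for *Igfbp5*, 1.23 for *Sst* and 2.58 for *Ppy*. Without lymphatic-type cells they were 0.74 for *Mmrn1*, 0.11 for *Lyve1* and 0.39 for the lymphatic median. Those cells were picked by the same genes, so this recount is no check of the lymphatic list. After thinning they were −0.0200 for *Gbp5*, 0.0531 for *Col1a2* and 0.42 for *Col1a1*, and 0.28 for *Col1a1* in cells under 5 percent mitochondrial counts. Without called doublets they were −0.00422 for *Gcg* and 1.81 for *Sst*. Without cells with *Ptprc*, *Epcam* or *Pdgfrb* they were 0.00675 for *Col1a2*, 1.82 for *Sst* and 1.28 for *Ppy*. Without cells rich in other transcripts they were 1.74 for *Sst* and 0.59 for *Ppy*, without the single richest cell 1.48 for *Sst*, and as a mean of cells 0.12 for *Ppy*. Of the other log2 ratios over named and listed genes, 3876 moved by less than their counting interval and 1088 by more. These counts can include sign changes of genes under 2-fold.

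No paired analysis was possible because each condition had 1 library, whose lanes are not separable in the files, and the results come from no test.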
